A study of Homo sapiens with 4 samples.

Results

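Retinoid transport and metabolism genes were examined in PLC8024, a human hepatocellular carcinoma cell line, after its cells had been separated on a flow cytometer into CD133+ and CD133- fractions. CD133, encoded by PROM1, is a surface glycoprotein by which tumour-initiating liver cancer cells are enriched. Total RNA of each population was hybridised to an oligonucleotide array, and the 4 deposited samples give 1 CD133+ and 1 CD133- population, each as RMA values on the log2 scale and as linear MAS5 intensities. All cells were of this 1 line, and no treatment, genotype or sort purity is given in the sources used here. The group of 9 genes comprised RBP4, TTR, CRABP1, CRABP2, ALDH1A1, ALDH1A2, RDH10, STRA6 and RARB, taken with every probe set that the platform annotation assigns to 1 of them alone. It assigned 19 of 54675 probe sets to 8 of the 9 genes, out of 19775 genes in all, and CRABP1 was not analysed here. The genes were chosen by their role in the retinoid pathway with the RMA differences and MAS5 ratios of these populations already known, so every difference between the populations is given as a description, and no test was run on 1 array per population and processing.

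Retinol, or vitamin A, leaves hepatocytes bound to RBP4, which circulates in a complex with TTR. STRA6 takes retinol from RBP4 into cells, retinol dehydrogenases such as RDH10 oxidise it to retinal, and ALDH1A enzymes oxidise retinal to retinoic acid. CRABP proteins bind retinoic acid in the cytoplasm, CYP26 enzymes break it down, and RAR and RXR receptors carry its signal to genes, among them RARB itself.

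A probe set is a set of short probes read out as 1 value. Where a gene had several, the one of highest mean RMA stood for it. The median of an RMA column, 5.16 in CD133+ and 5.14 in CD133-, served as an expression floor, because the files used here hold no detection calls. A gene was counted when its higher value reached that floor and both processings put the populations 2-fold or more apart with the same sign. Differences are CD133+ minus CD133- in RMA, and the log2 of CD133+ over CD133- in MAS5. Where a gene had a second probe set over the floor, as 6170 did, the gap between the differences of the pair had an SD of 0.35 in RMA and 0.79 in MAS5. This is a technical spread only, since 1 array per population gives no spread between sorts or cultures, and a difference cannot be split into a changed share of cells and changed RNA per cell. PROM1 had RMA values of 10.35 in CD133+, against 6.04 in CD133-, in the direction of the labels.

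Of the 8 genes measured, RBP4 alone was counted, as higher in CD133+, and none was counted as lower. The same rule counted 3.34% of all 13116 genes above the floor, with 2.25% on the higher and 1.09% on the lower side. Because RBP4's difference was known when the genes were chosen, nothing is read from that comparison. The representative probe sets of all 8 genes were above the floor in at least 1 population, 4 with a difference above 0 and 4 below it. Their median RMA difference was 0.00, as was that of all genes above the floor. In MAS5 their median log2 ratio was 0.66, against 0.00 for all genes above the floor. That MAS5 median includes the low-intensity ratios of TTR, CRABP2 and ALDH1A2 given below. Of the 19 probe sets, 12 were above the floor, and both probe sets of RBP4 were the ones counted, both as higher. Over the whole array, 3.05% of the 23625 probe sets of 1 gene that reached the floor were counted, with 1.92% on the higher and 1.13% on the lower side.

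**Figure D1:**
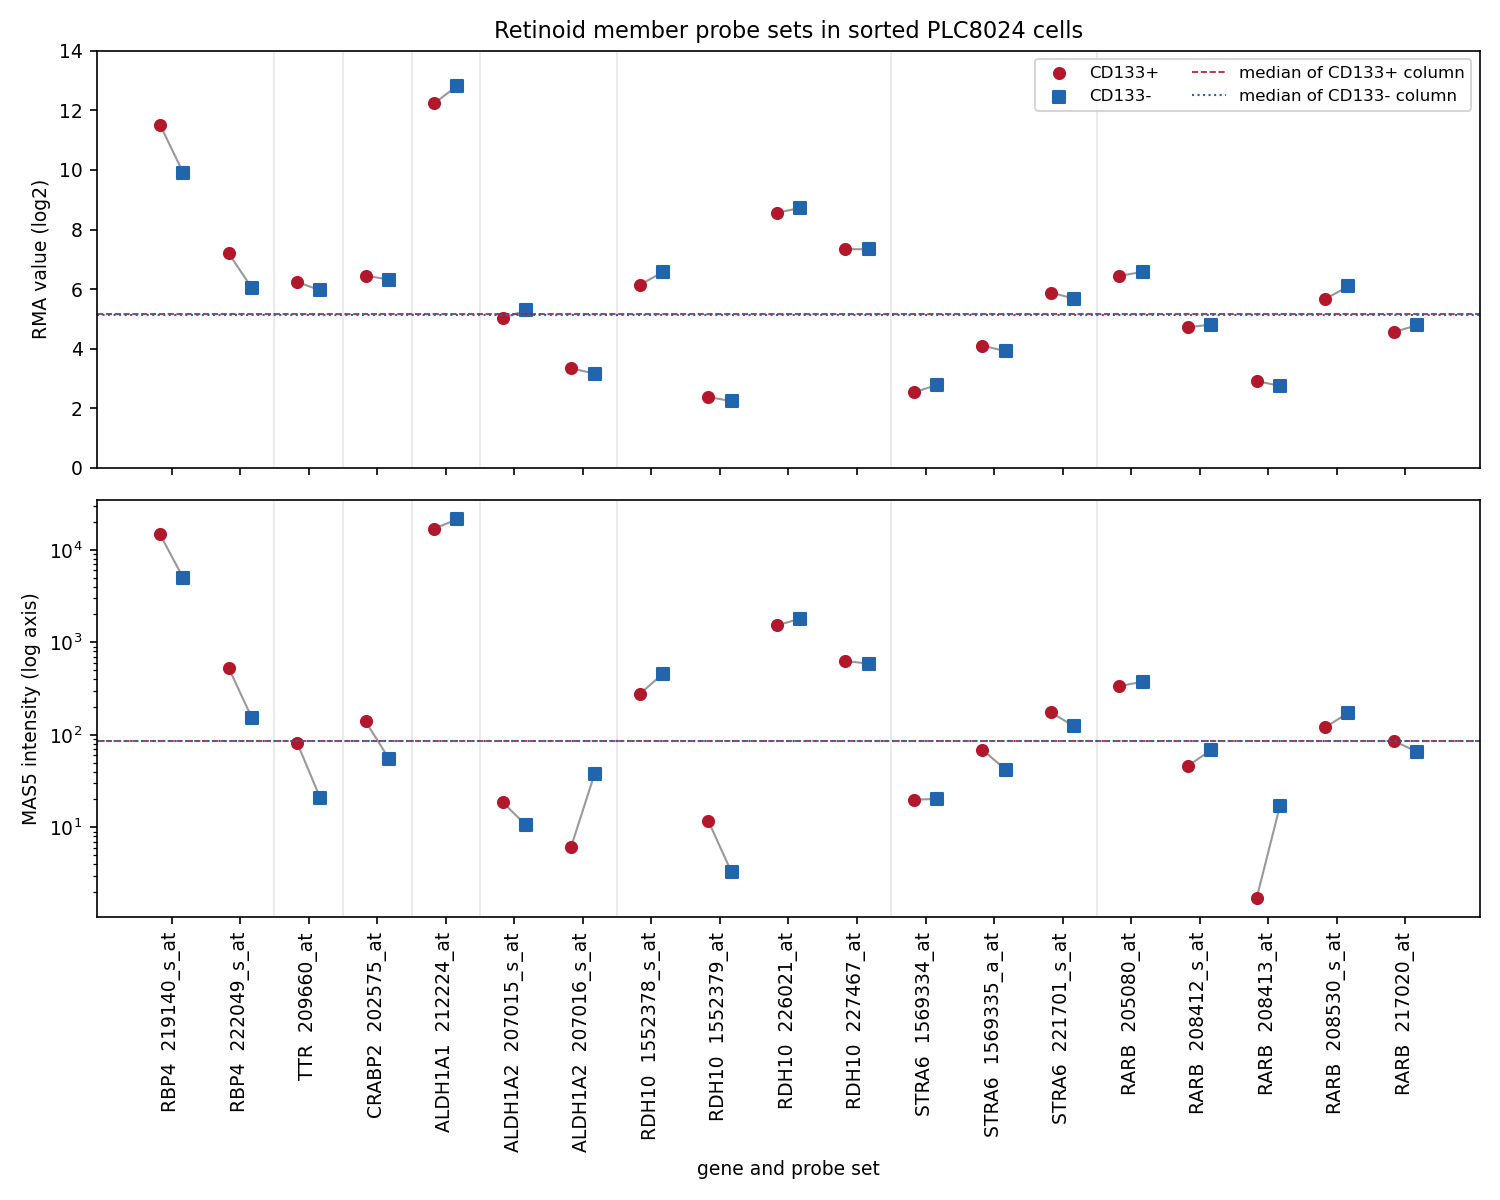
Value of each of the 19 probe sets in the CD133+ (red circles) and CD133- (blue squares) population, as RMA values on the log2 scale (top) and MAS5 intensities on a log axis (bottom); each point is 1 array value, and the dashed and dotted lines are the medians of the columns over all probe sets. Both RBP4 probe sets are higher in CD133+ in both panels, ALDH1A1 is lower in both, and the MAS5 gaps of TTR and CRABP2 have no counterpart of that size in RMA.

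RBP4 encodes the plasma carrier of retinol, a lipocalin secreted mainly by hepatocytes. Its probe set 219140_s_at had RMA values of 11.52 in CD133+, against 9.89 in CD133-. The MAS5 intensities of that probe set were 14688 in CD133+, against 4936 in CD133-. RBP4 was thus 3.09-fold higher in CD133+ by RMA and 2.98-fold higher by MAS5, and it ranked at place 134 of 295 genes counted as higher by RMA difference. Its other probe set, 222049_s_at, had RMA values of 7.21 in CD133+, against 6.04 in CD133-, which is 2.24-fold, with MAS5 intensities of 531.9 in CD133+, against 152.2 in CD133-. The RMA differences of the probe sets, 1.63 and 1.17, were each larger than the technical spread of 0.35. An RMA difference as large in size as that of RBP4 was found in 1.46% of genes above the floor. RBP4 was chosen with its difference known, so nothing is read from that share or from its rank. Both probe sets carry the suffix _s_at, used for probes that can match more than 1 transcript, so no value of RBP4 is left without such probe sets.

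RefSeq lists 3 promoter windows for RBP4 on GRCh38.p14, each from 250 bases before to 50 bases after an annotated start. The window of the start farthest downstream is shown, as the sequence upstream of the only counted gene; it lies on the minus strand at chr10:93601186-93601485, and capitals mark TATAAA, the core of a TATA box, beginning 31 bases before the start.
RBP4: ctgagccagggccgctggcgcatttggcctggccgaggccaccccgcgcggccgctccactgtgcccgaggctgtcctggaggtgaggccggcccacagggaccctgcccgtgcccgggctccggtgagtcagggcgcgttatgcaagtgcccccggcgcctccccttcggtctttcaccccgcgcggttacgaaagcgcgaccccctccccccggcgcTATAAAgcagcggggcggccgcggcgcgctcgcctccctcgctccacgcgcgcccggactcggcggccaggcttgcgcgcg
The other RBP4 windows, which overlap each other, held TATAAA as well. Both windows held the same bases of the chromosome there, a single stretch read on either strand. It lay at positions -227 and -225 from the start of one window, and at 5 and 7 from that of the other. Of 35116 promoter windows, 11.5% held TATAAA on either strand. None of the 3 RBP4 windows held a retinoic acid receptor half-site (the letters AGGTCA, the variant AGTTCA, the variant GGTTCA or the variant GGGTCA, on either strand), letters that 38.6% of all windows held.

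RBP4 lies on chromosome 10, 4 measured genes away from CYP26A1, whose enzyme hydroxylates retinoic acid. Of the 10 nearest measured genes, 5 on each side of RBP4, 7 were above the floor and none was counted. Their RMA differences ran from -0.14 to 0.94 with a median of 0.23. The largest were 0.94 for CYP26A1 and 0.91 for MYOF, a membrane repair protein, both lying on the same side of RBP4. The 3 genes whose pair of RMA values was nearest to that of RBP4 were TGFBI, an extracellular matrix protein, MMD, a membrane protein of macrophage differentiation, and MRPL11, a mitochondrial ribosomal protein. Their Euclidean distances over the pair of populations were 0.44, 0.48 and 0.48.

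TTR encodes transthyretin, the thyroid hormone carrier that binds RBP4 in plasma. Its 1 probe set had RMA values of 6.24 in CD133+, against 5.96 in CD133-, a difference of 0.28 that lies within the technical spread. The MAS5 intensities were 82.1 in CD133+, against 20.5 in CD133-, a log2 ratio of 2.003. Both intensities were below the MAS5 column medians of 86.0 in CD133+ and 86.1 in CD133-. In 1234 genes where any of the 4 intensities of a probe set pair was under 100, the gap between probe sets in MAS5 reached 3.12 at its 95th percentile, against 0.98 in the other 4936. TTR was not counted, and its MAS5 ratio lay within the gap seen at such low intensities. STRA6, the membrane receptor that takes up retinol from RBP4, had RMA values of 5.88 in CD133+, against 5.68 in CD133- in its highest probe set. Its difference was 0.20 in RMA and 0.50 in MAS5, and its other 2 probe sets were below the floor in both populations.

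CRABP2 shuttles retinoic acid to nuclear receptors. It had RMA values of 6.45 in CD133+, against 6.32 in CD133-, a difference of 0.13. Its MAS5 intensities were 139.2 in CD133+, against 55.2 in CD133-, a log2 ratio of 1.33 that lies within the gap of low-intensity probe sets given for TTR. CRABP2 was not counted, since the 2-fold difference was present in MAS5 only.

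ALDH1A1, a cytosolic retinal dehydrogenase that is also used as a marker of tumour-initiating cells, lay on the CD133- side without reaching 2-fold. Its probe set had RMA values of 12.23 in CD133+, against 12.83 in CD133-, and MAS5 intensities of 16902 in CD133+, against 21431 in CD133-. That is 1.51-fold lower in CD133+ by RMA and 1.27-fold lower by MAS5. The RMA difference of -0.59 exceeded the SD between probe sets but not the 95th percentile of their gap, 0.70, and 10.8% of genes above the floor had a difference as large in size. Of its 10 nearest measured neighbours on chromosome 9, 4 were above the floor and went both ways: GDA, guanine deaminase, was counted as lower with an RMA difference of -1.40, and ANXA1, an annexin, had 0.26. ALDH1A2, the retinal dehydrogenase known for its role in embryos, was close to the floor, with RMA values of 5.03 in CD133+, against 5.28 in CD133- in its higher probe set. Its MAS5 intensities there were 18.6 in CD133+, against 10.6 in CD133-, opposite in sign to RMA, and the other probe set was below the floor. No direction is given for ALDH1A2.

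RDH10, which oxidises retinol to retinal, had 3 of its 4 probe sets above the floor. Probe set 226021_at had RMA values of 8.56 in CD133+, against 8.72 in CD133-, and 227467_at had 7.34 in both. The third, 1552378_s_at, had 6.14 in CD133+, against 6.58 in CD133-. Their differences of -0.16, 0.00 and -0.43 did not reach 2-fold, and the gene was not counted.

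RARB encodes retinoic acid receptor beta, which retinoic acid itself induces. Of its 5 probe sets, 2 were above the floor. The higher one, 205080_at, had RMA values of 6.45 in CD133+, against 6.58 in CD133-, and the other, 208530_s_at, had 5.67 in CD133+, against 6.09 in CD133-. The differences were -0.13 and -0.42 in RMA and -0.16 and -0.53 in MAS5, and neither was counted. The files used here do not say which RARB transcript a probe set reads.

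Retinoic acid acts on RARB through a DR5 element, a pair of the half-sites named for RBP4 in the same orientation with 5 bases between them, and CYP26A1 has such an element too. Both windows are shown because these genes serve as readouts of retinoic acid, and capitals mark the DR5 letters. The RMA difference of the highest RARB probe set, -0.13, lay within the technical spread of 0.35, so no contrast in sign with CYP26A1 is drawn. The RARB window is on the plus strand at chr3:25428013-25428312, with the DR5 letters beginning 53 bases before the start. The CYP26A1 window is on the plus strand at chr10:93073643-93073942, with the DR5 letters, read on the opposite strand, beginning 90 bases before the start.
RARB: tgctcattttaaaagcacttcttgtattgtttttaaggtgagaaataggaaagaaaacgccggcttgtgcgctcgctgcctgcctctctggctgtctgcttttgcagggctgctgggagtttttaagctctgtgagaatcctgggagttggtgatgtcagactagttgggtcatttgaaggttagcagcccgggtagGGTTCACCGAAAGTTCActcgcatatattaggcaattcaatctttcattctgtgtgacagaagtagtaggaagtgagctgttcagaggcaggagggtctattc
CYP26A1: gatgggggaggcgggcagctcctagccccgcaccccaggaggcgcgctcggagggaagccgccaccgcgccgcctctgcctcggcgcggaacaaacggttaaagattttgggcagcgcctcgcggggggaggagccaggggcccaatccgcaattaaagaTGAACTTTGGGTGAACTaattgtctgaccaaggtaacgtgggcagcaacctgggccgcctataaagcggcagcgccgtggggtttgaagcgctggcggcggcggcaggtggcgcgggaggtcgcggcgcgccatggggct
A DR5 on either strand was present in 0.0883% of all windows, and in windows of 29 of 27305 genes. Every DR5 overlaps the half-site search by construction. The other 3 RARB windows and the other CYP26A1 window held none. CYP26A1 had RMA values of 6.08 in CD133+, against 5.14 in CD133-, a difference of 0.94, and MAS5 intensities of 236.9 in CD133+, against 102.0 in CD133-, a log2 ratio of 1.22. It missed the 2-fold rule in RMA only, and its CD133- value lay at the floor. Of the 29 genes with DR5 letters, 15 had a probe set, 9 were above the floor, and none was counted, beside 3.34% of all genes above the floor. At that share, no call among 9 genes is not read as a result. The median RMA difference of those above the floor was 0.06, against 0.00 for all genes above the floor.

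**Figure D2:**
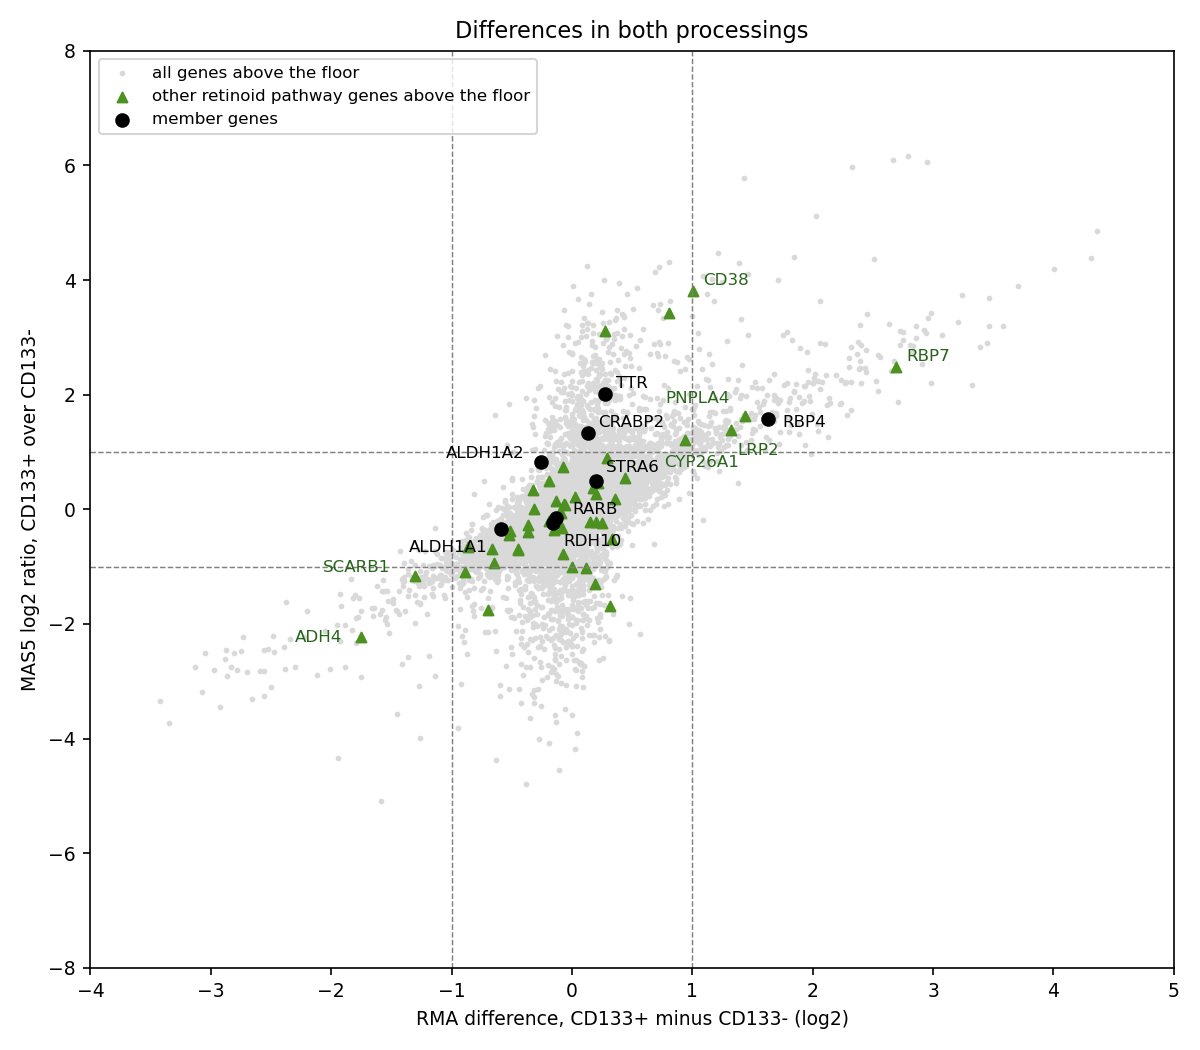
RMA difference (x axis, log2) against MAS5 log2 ratio (y axis), both CD133+ relative to CD133-, for the 8 member genes (black circles), other retinoid pathway genes above the floor (green triangles) and all 13116 genes above the floor (grey points); dashed lines mark 2-fold. RBP4 lies beyond 2-fold on both axes, while TTR and CRABP2 do so in MAS5 only.

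The wider pathway was described from 10 lists by role, holding 89 further genes. A probe set was assigned to 73 of them, and 48 reached the floor. In CD133+, 4 of the 48 counted as higher and 2 as lower, beside 2.25% and 1.09% of all genes above the floor. The lists were chosen with earlier results of these data known. Nothing is therefore read from these counts, or from the counts by role below, to which the same shares apply. The median RMA difference of the 48 was -0.07, against 0.00 for all genes, and their median MAS5 ratio was -0.21, against 0.00.

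Among carriers and uptake proteins, 4 further genes reached the floor; 2 of them were counted as higher and 1 as lower. RBP7, a cellular retinol-binding protein, had RMA values of 8.07 in CD133+, against 5.37 in CD133-, and MAS5 intensities of 672.0 in CD133+, against 120.3 in CD133-. It was 6.47-fold higher by RMA on its 1 probe set. LRP2, or megalin, the endocytic receptor that retrieves RBP4 with its retinol in the kidney, had RMA values of 8.40 in CD133+, against 7.08 in CD133-. It was 2.50-fold higher, and a difference of 0.81 was found in its other probe set by RMA. SCARB1, a lipoprotein receptor that also takes up carotenoids, had RMA values of 10.12 in CD133+, against 11.43 in CD133-, and 3 of its 5 probe sets were counted as lower, with RMA differences of -1.31, -1.27 and -1.25. RBP5, another cellular retinol-binding protein, differed by -0.32 in RMA and 0.33 in MAS5. FABP5, which can carry retinoic acid to PPARD, had RMA values of 12.44 in CD133+, against 12.57 in CD133-.

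**Figure D3:**
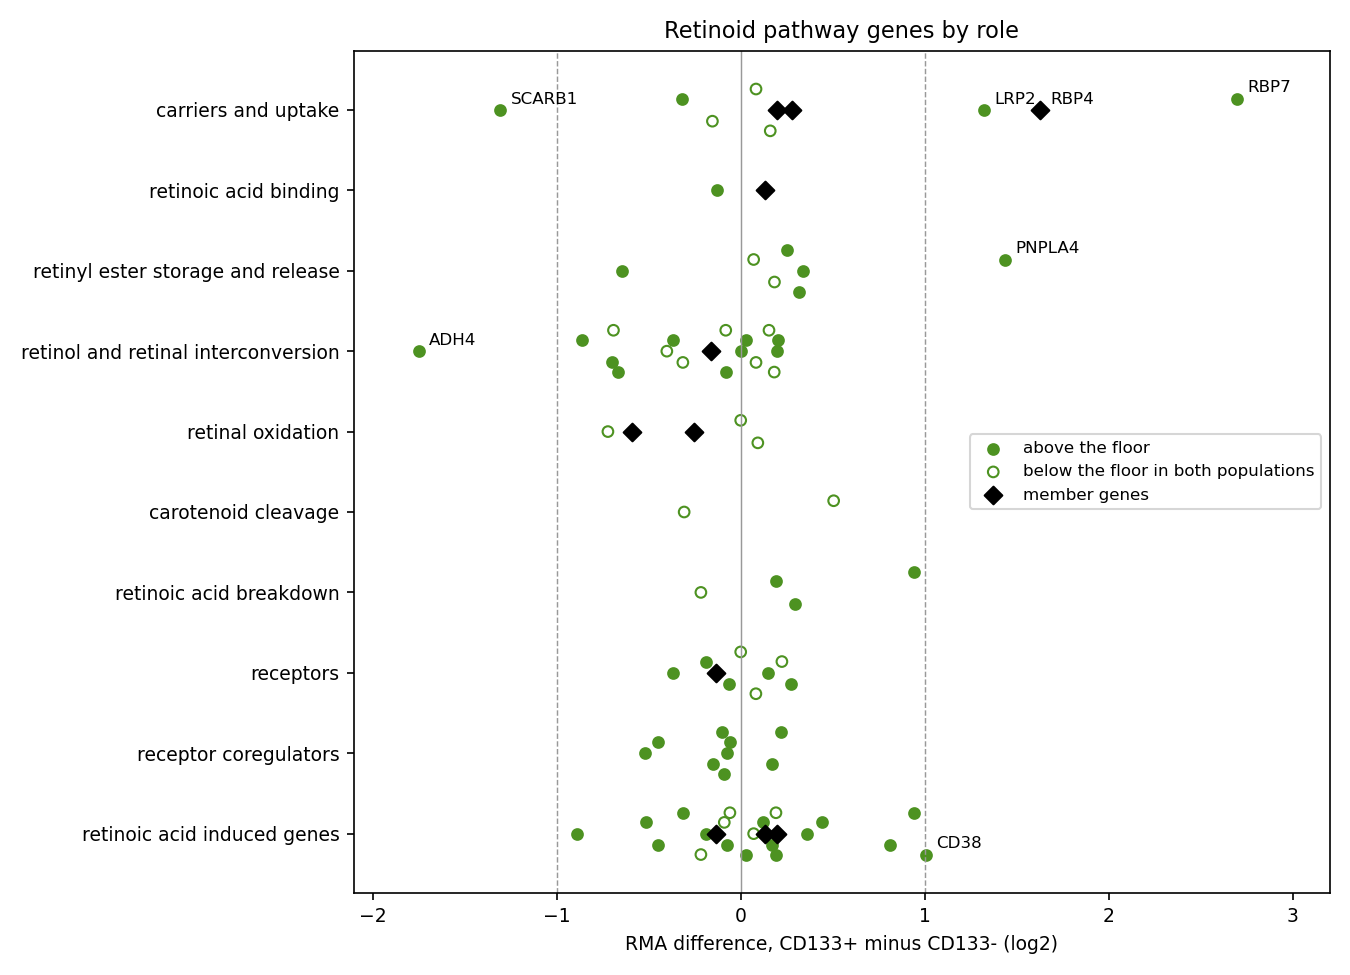
RMA difference (x axis, log2, CD133+ minus CD133-) of each retinoid pathway gene, one row per role; green points are further genes, filled where above the floor and open where below it in both populations, black diamonds are member genes, and dashed lines mark 2-fold. Counted genes and RBP4 carry their names; all receptors and coregulators lie inside the 2-fold lines.

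Of 5 genes of retinyl ester storage and release above the floor, PNPLA4 was counted as higher. PNPLA4, a lipase with retinyl ester hydrolase activity, had RMA values of 8.54 in CD133+, against 7.11 in CD133-, and was 2.71-fold higher by RMA and 3.10-fold by MAS5. Its other probe set had a difference of 0.87 below the floor. DGAT1, which can esterify retinol, had a difference of -0.64. CES1 and LIPE, which can hydrolyse retinyl esters, had RMA differences of 0.34 and 0.32 with MAS5 ratios of the opposite sign. LRAT, the main retinol-esterifying enzyme of hepatic stellate cells, was below the floor in both populations, at RMA values of 2.09 in CD133+, against 2.02 in CD133-.

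Of 10 genes of retinol and retinal interconversion above the floor, 1 was counted as lower and none as higher, with 6 differences below 0, 3 above 0 and 1 at 0. Over all 13116 genes above the floor, 6548 were below 0 and 6319 above it. ADH4, a hepatic alcohol dehydrogenase that oxidises retinol, had RMA values of 5.80 in CD133+, against 7.55 in CD133-. That is 3.36-fold lower in CD133+ by RMA, but its other probe set above the floor had a difference of -0.44. ADH6, RDH12 and RDH13 had RMA differences of -0.86, -0.70 and -0.67, and all 3 MAS5 ratios were also below 0. Further retinal oxidation genes and both carotenoid cleavage enzymes were below the floor in both populations.

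In the retinoic acid breakdown list, CYP26A1 had the difference given beside its promoter. CYP26B1, another retinoic acid hydroxylase, had an RMA difference of 0.19 but a MAS5 ratio of -1.30, with MAS5 intensities of 18.5 in CD133+, against 45.4 in CD133-. CYP3A4, a hepatic drug-metabolising enzyme, had 0.29 in RMA and 0.90 in MAS5, and none of the 3 was counted. The other CYP3A4 probe set above the floor had an RMA difference of 0.13, and the rest were below the floor in both populations. None of 5 further receptors above the floor was counted. RARA, which encodes retinoic acid receptor alpha, had RMA values of 6.56 in CD133+, against 6.28 in CD133-, and MAS5 intensities of 131.8 in CD133+, against 15.3 in CD133-, a log2 ratio of 3.10. The other RARA probe sets above the floor had RMA differences of -0.09, 0.04 and 0.05. RXRA, the common partner of the retinoic acid receptors, had RMA values of 6.22 in CD133+, against 6.59 in CD133-. PPARD, a fatty acid receptor, had a difference of -0.19. None of 9 receptor coregulators was counted, and NCOA2, NCOA1 and EP300, which act as coactivators, had differences of -0.52, -0.45 and 0.22.

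Of 15 further retinoic acid induced genes above the floor, 1 was counted, beside 3.34% of all genes above the floor. At that share, 1 call among 15 genes is not read as a result. The median RMA difference of the 15 was 0.12, against 0.00 for all genes above the floor. CD38, an ectoenzyme that consumes NAD, had RMA values of 6.57 in CD133+, against 5.56 in CD133-, and MAS5 intensities of 243.4 in CD133+, against 17.4 in CD133-. Its RMA difference of 1.01 stood at the 2-fold line, and it was not counted after the columns were scaled to one median, quantile-normalized or given a higher floor. GPRC5A, an orphan receptor induced by retinoic acid, had a difference of 0.81 in RMA and 3.43 in MAS5. MEIS2, a homeobox gene, had -0.89 in RMA and -1.10 in MAS5.

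Of 8 hepatocyte markers with a probe set, all were above the floor in both populations, with summed MAS5 intensities of 139004 in CD133+, against 146665 in CD133-. ALB, serum albumin, and APOA1, an apolipoprotein, were counted as lower in CD133+, at RMA differences of -3.42 and -1.80, and the other 6 were not counted. Most of each sum came from SERPINA1, TF, FGB and APOB, which were among those 6. The sums therefore say little about ALB, which gave 746.1 in CD133+, against 7591 in CD133-. Of the markers of stellate cells and fibroblasts, the cells that store retinyl esters in liver, 5 of 10 were above the floor in each population. None of the 10 was counted. Their summed MAS5 intensities were 1187 in CD133+, against 786.0 in CD133-, of which COL1A1 gave 594.9 and 430.1. LUM, below the floor in both populations, gave 131.7 in CD133+, against 14.7 in CD133-. Of 5 leukocyte markers, 3 were above the floor in both populations: LYZ, counted as higher, and CD3E and CD79A, not counted. PTPRC and CD14 were below the floor in both. The sums were 10737 in CD133+, against 4248 in CD133-, of which LYZ alone gave 10257 and 4008. Of 5 endothelial markers, PECAM1 alone was above the floor and was counted as lower, with sums of 303.3 in CD133+, against 959.1 in CD133-. Of 4 cholangiocyte markers, KRT19 was counted as higher and SOX9 as lower, with sums of 1155 in CD133+, against 976.7 in CD133-. The part of these markers' cells in the retinoid values was not tested.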

How the data were processed

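The authors deposited MAS5 intensities on a linear scale and RMA values on the log2 scale, per the labels. The submitters' processing notes name GCOS, MAS5 and RMA without versions; the sources used here do not give which arrays were normalized together. The RMA and MAS5 columns are 2 processings of each population and were never treated as replicates. Precision is limited by the number of arrays. From the deposited table, probe sets were named through GEO's platform annotation, with symbols updated by gene ID from RefSeq (GRCh38.p14); 41097 had 1 gene, 1801 several and 11777 none, and only the first were used. Differences, counts and medians were computed with Python 3.11.15, numpy 2.4.6 and pandas 2.3.3, and the count rule was tested on simulated data. The simulated shifts were placed well above the floor, with noise smaller than the gap between probe sets. That test therefore does not cover genes of low signal. Promoter windows are RefSeq's, and TTR, RDH10 and SCARB1 had none to match. The named genes were all members, each counted gene of the pathway lists, up to 3 other genes per list above the floor with the largest RMA difference in size, the 3 genes nearest to a counted member, and PROM1. ALB, APOA1, APOB, SERPINA1, TF, FGB, LRAT, COL1A1, LUM, LYZ, PTPRC, CD14, CD3E, CD79A, PECAM1, KRT19, SOX9, GDA, ANXA1, MYOF and TGM2 were named after their values were seen. The members, lists and rules were chosen with earlier results of these data known. Alternatives covered the processing, floor, fold, probe set, pseudocount and scaling.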

Additional observations from a re-analysis of the deposited data

How the results depend on the processing

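RBP4 kept a difference between 1.40 and 1.63 in all 6 alternatives that could give one, and ALDH1A1, RARB, RDH10 and STRA6 moved by less than the SD between probe sets in all 7 of theirs. In MAS5 alone the differences were 2.003 for TTR, 1.33 for CRABP2 and 0.82 for ALDH1A2, and with a pseudocount of 50 they were 0.91, 0.85 and 0.18. ALDH1A2 had 0.18 in its probe set with the highest MAS5 intensity. The cause was not tested. The count of 1 member gene and 2 member probe sets was 3 and 4 in MAS5 alone, where CRABP2 and TTR joined RBP4 and 13.3% of all genes were counted. It was 0 and 0 at 3-fold, since 1 RBP4 probe set was 2.98-fold in MAS5 and the other 2.24-fold in RMA, and 0 and 0 without _x_at and _s_at probe sets, which leave none for RBP4. Of 6 further pathway genes counted, the number was 15 in MAS5 alone, 13 at 1.5-fold, 2 at 3-fold (ADH4 and RBP7) and 3 without _x_at and _s_at probe sets (LRP2, RBP7 and SCARB1). With the median over probe sets ADH4 was not counted and TGM2 was. Over all genes, the count of 438 was 1739 in MAS5 alone, 1245 at 1.5-fold and 175 at 3-fold. No paired analysis was possible because each population has 1 array value per processing, and for the same reason no replicate could be left out. Low signal limits TTR, CRABP2, ALDH1A2 and the probe sets below the floor. It also limits the MAS5 ratios of CD38, which was counted, and of RARA, GPRC5A and CYP26B1, which were not.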
